A study of Rattus norvegicus with 27 samples.

Results

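The antioxidant enzymes Sod1, Sod2, Sod3, Cat, Gpx1, Hmox1, Nqo1, Gclc and Gclm and the thioredoxin-interacting protein Txnip were followed across 3 brain regions of control and diabetic rats. Every non-control probe that the array's annotation names for a member was taken, which gave 12 probes for the 10 genes (2 each for Sod1 and Gpx1) among 41012 non-control probes. The groups were male rats of 10 weeks. Wistar rats without treatment were the controls, with a mean blood sugar of 7.64 mmol/l. Wistar rats given 65 mg/kg streptozotocin into a vein at 6 weeks of age, 4 weeks before death, modelled type 1 diabetes and had 26.34 mmol/l. Untreated Goto-Kakizaki rats, a non-obese strain with inherited type 2 diabetes, had 13.9 mmol/l. The Goto-Kakizaki rats are not Wistar rats, so that diabetes and strain cannot be told apart in any difference between them. From 9 animals of each kind the hippocampus, prefrontal cortex and striatum were dissected and pooled 3 by 3, which gave 3 pools in each of 9 groups and 27 one-colour arrays.

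The members handle reactive oxygen in steps. The superoxide dismutases turn superoxide into hydrogen peroxide, in the cytosol (Sod1), the mitochondrial matrix (Sod2) and outside the cell (Sod3). Catalase (Cat) and the selenoenzyme glutathione peroxidase 1 (Gpx1) remove the peroxide, the latter at the cost of glutathione, whose synthesis starts with the ligase made of the catalytic subunit Gclc and the modifier subunit Gclm. Haem oxygenase 1 (Hmox1), which opens the haem ring, and the quinone reductase Nqo1 are well known targets of the transcription factor Nrf2, as are both ligase subunits. Txnip binds thioredoxin and restrains its reducing activity, and its transcription rises with glucose through a carbohydrate-sensing factor and its partner Mlx. In brain, neurons and glia share out these tasks, with glutathione made largely in astrocytes.

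Sod2 and Gpx1 are shown by the 250 bases before their start sites, because both passed the test in the Goto-Kakizaki prefrontal cortex below. The sequences are from RefSeq on the rat build GRCr8, which listed a promoter for 7 of the 10 members and none for Sod3, Hmox1 and Txnip. Capitals mark the GC box, GGGCGG on either strand, and the core of the antioxidant response element, TGACNNNGC on either strand, to which Nrf2 binds. Both motifs occurred once in the Sod2 promoter, without overlap, the response element core on the other strand. The Gpx1 promoter held 1 GC box.
Sod2, chr1:50050169-50050418, minus strand: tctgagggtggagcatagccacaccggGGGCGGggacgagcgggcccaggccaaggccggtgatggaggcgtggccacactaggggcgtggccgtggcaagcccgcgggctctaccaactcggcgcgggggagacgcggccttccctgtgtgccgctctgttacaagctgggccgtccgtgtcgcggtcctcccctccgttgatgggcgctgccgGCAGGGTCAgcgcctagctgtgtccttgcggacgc
Gpx1, chr8:117905212-117905461, plus strand: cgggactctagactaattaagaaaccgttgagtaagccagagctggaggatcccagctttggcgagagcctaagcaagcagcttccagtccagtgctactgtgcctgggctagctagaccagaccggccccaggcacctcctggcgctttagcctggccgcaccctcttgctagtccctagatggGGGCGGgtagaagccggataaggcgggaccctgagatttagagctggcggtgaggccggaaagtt
The response element core was found in 10.1% of 33469 rat promoters of this length and in Sod2 and Gclm among the members. The GC box was found in 30.5% of promoters and in all 7 members but Cat. The E-box CACGTG, present in 5.59% of promoters, matched none of the 7. These matches describe letters in a window and are not evidence of binding.

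The probes are 60 bases long, and the first 30 bases are shown for both probes of Gpx1, whose results differed, and for the pair of probes with the least G and C, because the reading of a gene depends on them.
Gpx1 probe 1 (A_42_P805300): cggggggaggtttttccatgacggtgtttc
Gpx1 probe 2 (A_44_P123315): aggcgctttcgcaccatcgacatcgaaccc
Txnip (A_44_P237621): tttgtgtatctttttgtatgattaaaaact
Gclm (A_44_P1011898): atatatttcctttatttttatgagtaatag
No member probe shared a run of 20 bases with any other probe. The Gclm probe had 15% G and C, the Txnip probe 18.3%, and the other probes 35% to 55%.

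Levels are given as log2 of the processed signal over the 75th percentile of the same array, so that a level of 0 equals that percentile. The percentile itself lay between 690 and 1527 signal units, and 67.4% to 75.3% of the probes of an array were well above background. Of the 12 member probes, 11 were well above background on all 27 arrays and none was saturated. Gclm was not well above background on any array and could not be tested, so that no level of the modifier subunit is given. 1 value of Sod1 probe 2, in pool 3 of the Goto-Kakizaki prefrontal cortex, was an outlier spot and was left out of the fit. The regions carried their defining transcripts: all 6 striatal neuron genes (Drd1, Drd2, Ppp1r1b, Adora2a, Rgs9, Penk) passed as higher in the control striatum than in either other region. Their summed level over the 75th percentile was 161 to 219 in the control striatum, 5.08 to 18.3 in the control prefrontal cortex and 3.30 to 3.42 in the control hippocampus. Of the dentate gyrus genes, Prox1 and Dsp were lower in both other control regions than in the hippocampus and Calb1 was higher in the striatum, so that the sum of all 3 was 8.84 to 10.9 in the striatum and 6.02 to 6.87 in the hippocampus. The arrays of pool 2 of the Goto-Kakizaki and of the control striatum stood apart, with estimated weights of 0.0862 and 0.132 against up to 9.11. The arrays lay on 7 slides, and arrays of slides 5, 6 and 7 deviated together from their group means (mean correlations of 0.468, 0.654 and 0.480 within those slides against -0.03 between slides). In pooled tissue, fewer cells of a type and less RNA per cell cannot be told apart.

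**Figure D1:**
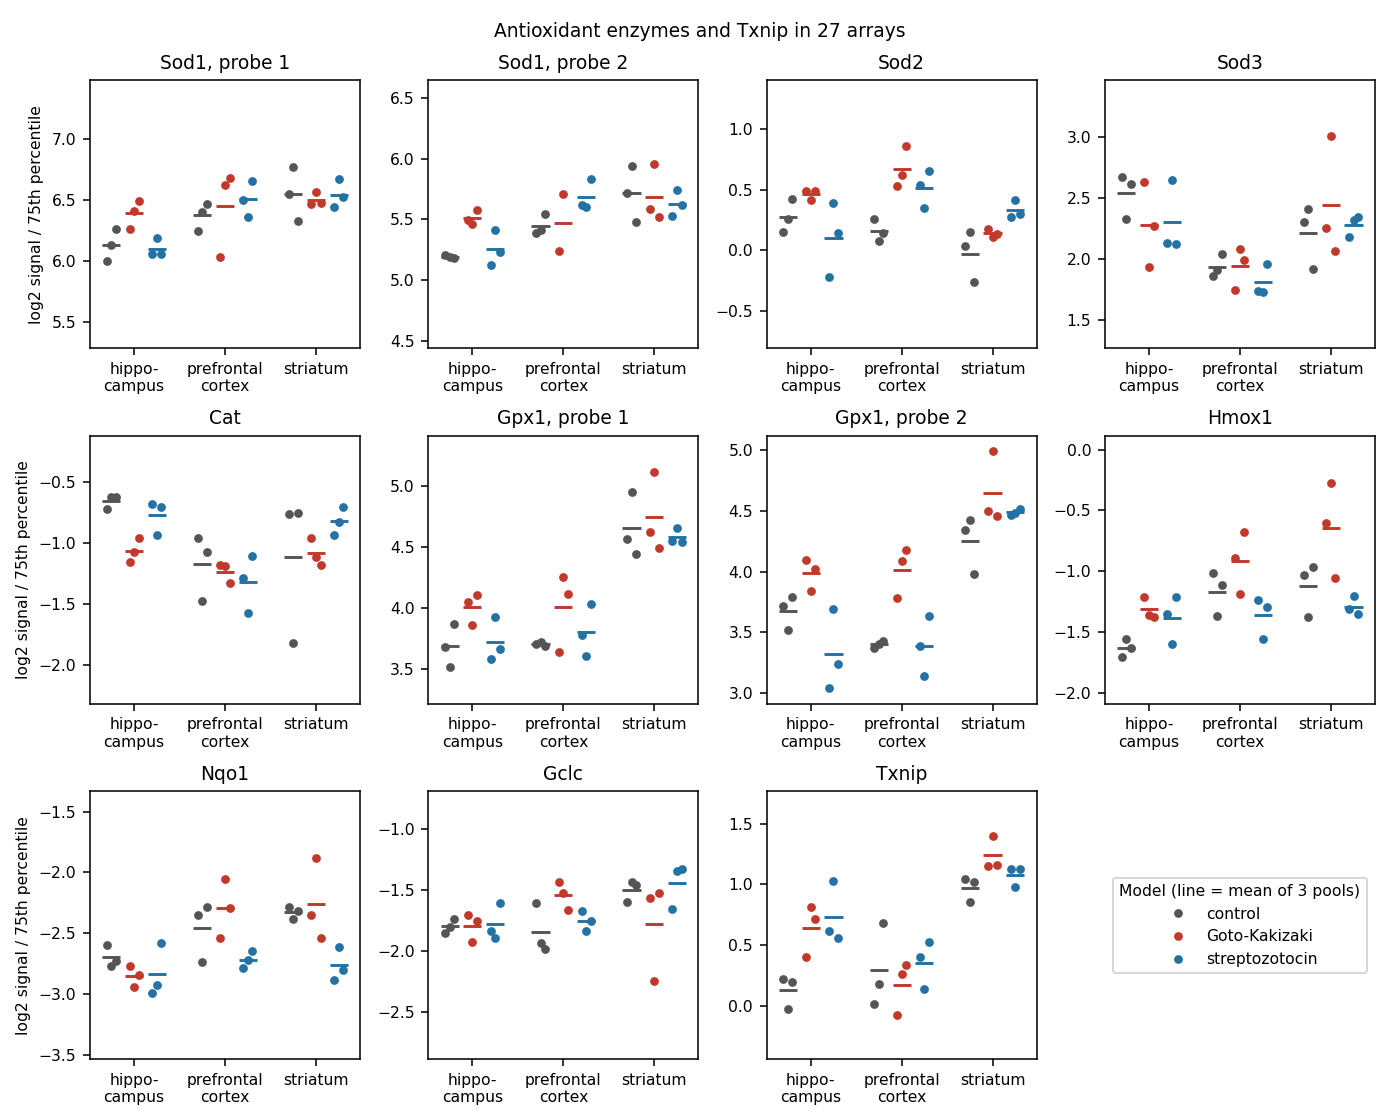
Level of the 11 detected member probes (log2 of signal over the array's 75th percentile) in the 9 groups, with 1 point for each pool of 3 rats and a line at the group mean; every panel spans the same range of log2 units. Both Gpx1 probes and Txnip sit highest in the 3 striatum groups, and most other panels show groups that overlap.

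The clearest differences among the members lay between brain regions, in control rats. In the striatum against the hippocampus, 6 of the 11 tested member probes passed (limma, adjusted p under 0.05), all higher in the striatum, where 29.9% of all probes passed in either direction and 17.3% were higher. They belonged to Gpx1 (both probes), Txnip, Sod1 (both probes) and Hmox1. The median difference of the 11 member probes was 0.42, against 0.03 for all probes tested. Non-overlap between 2 groups was common: it held for 45.4% of all probes tested here and for 22.7% to 44.8% in other comparisons.

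Gpx1, the peroxide-removing selenoenzyme, showed the widest regional gap. Its probe 1 stood at 4.57, 4.95 and 4.44 in the 3 pools of the control striatum, at 3.70, 3.71 and 3.69 in the control prefrontal cortex and at 3.68, 3.51 and 3.86 in the control hippocampus. All striatum pools lay above all pools of the other regions, and this held for the diabetic groups as well: the 9 striatum arrays spanned 4.44 to 5.11 and the highest of the other 18 arrays was 4.26. The striatum was higher than the hippocampus by 0.97 ± 0.18 (SE, n = 3 pools each, 1.96-fold, adjusted p = 0.000222) and higher than the prefrontal cortex by 0.95 ± 0.18 (1.93-fold, adjusted p = 0.000286). Probe 2 gave 4.35, 4.43 and 3.98 in the control striatum, 3.37, 3.40 and 3.43 in the prefrontal cortex and 3.72, 3.52 and 3.79 in the hippocampus. By that probe the difference was 0.58 ± 0.17 against the hippocampus (adjusted p = 0.0141) and 0.85 ± 0.17 against the prefrontal cortex (adjusted p = 0.000707). The groups did not overlap by either probe, while 8 rather than 9 of the striatum arrays lay above all others by probe 2. Without pool 2 of the control hippocampus or pool 2 of the control striatum, probe 2 no longer passed against the hippocampus (0.50, adjusted p = 0.0687, and 0.49, adjusted p = 0.0612). With normexp background correction probe 1 still passed against the hippocampus (0.66, adjusted p = 0.0307) and probe 2 did not (0.29, adjusted p = 0.312), and by the methods' t-test neither did. With the replicate number as a block neither probe passed against the hippocampus (adjusted p = 0.0660 and 0.135).

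Txnip, the thioredoxin inhibitor, was the other gene with a regional gap of this kind. It stood at 1.04, 0.85 and 1.02 in the control striatum, 0.02, 0.18 and 0.69 in the control prefrontal cortex and 0.22, -0.02 and 0.19 in the control hippocampus. The striatum pools were above every pool of the other control regions. The difference was 0.84 ± 0.17 from the hippocampus (1.79-fold, adjusted p = 0.000608) and 0.68 ± 0.17 from the prefrontal cortex (1.60-fold, adjusted p = 0.00464). In the order of the 9 group means, the 3 striatum groups came first (1.24 in Goto-Kakizaki, 1.08 in streptozotocin-treated and 0.97 in control rats) and the control hippocampus came last (0.13). The hippocampus of streptozotocin-treated rats, with 0.62, 1.03 and 0.56, came next and overlapped the control striatum. The difference from the hippocampus passed under all 14 other settings and without any single pool. That from the prefrontal cortex did not pass with normexp background correction (0.52, adjusted p = 0.0769), by the methods' t-test (adjusted p = 0.264) or with the replicate number as a block (adjusted p = 0.0981).

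Sod1, the cytosolic dismutase, was higher in the control striatum than in the hippocampus by 0.42 ± 0.15 (probe 1, adjusted p = 0.0342) and 0.52 ± 0.14 (probe 2, adjusted p = 0.00733). Its probe 2 stood at 5.72, 5.94 and 5.48 in the striatum and at 5.21, 5.19 and 5.18 in the hippocampus, without overlap, and the call held without any single pool. Probe 1 no longer passed without pool 1 (0.35, adjusted p = 0.129) or pool 2 of the control hippocampus (0.42, adjusted p = 0.0800), or without pool 1 (0.42, adjusted p = 0.0669) or pool 2 of the control striatum (0.31, adjusted p = 0.143). With normexp background correction the differences were 0.18 and 0.19 and neither passed (adjusted p = 0.471 and 0.386), and after quantile normalization that of probe 1 was 0.06. Neither probe passed by the methods' t-test (adjusted p = 0.208 and 0.204) or with the replicate number as a block (adjusted p = 0.202 and 0.119).

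Hmox1, which breaks down haem, stood at -1.03, -1.37 and -0.97 in the control striatum and -1.70, -1.55 and -1.63 in the control hippocampus. The groups did not overlap, and the difference was 0.51 ± 0.17 (1.42-fold, adjusted p = 0.0293). The call rested on the full set of arrays: it held without pool 2 of the control striatum and was lost without any of the other 5 pools. Without those pools the difference was 0.47 (hippocampus pool 1, adjusted p = 0.0894), 0.54 (pool 2, adjusted p = 0.0501) and 0.51 (pool 3, adjusted p = 0.0671), or 0.46 (striatum pool 1, adjusted p = 0.0835) and 0.43 (pool 3, adjusted p = 0.107). The call was also lost by the methods' t-test (adjusted p = 0.181) and with the replicate number as a block (adjusted p = 0.141). With slide 6 left out it was lost as well (0.43, adjusted p = 0.128).

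In the striatum against the prefrontal cortex, 3 of 11 member probes passed, where 25.4% of all probes did and 13.1% were higher: both Gpx1 probes and Txnip, all described above and all higher in the striatum. Between the prefrontal cortex and the hippocampus no member probe passed in limma (16% of all probes passed), and 3 had an unadjusted p under 0.05. Those were Sod3, the extracellular dismutase (lower in the cortex by 0.60 ± 0.21, adjusted p = 0.0583), Cat (lower by 0.52 ± 0.20, adjusted p = 0.0945) and Hmox1 (higher by 0.46 ± 0.17, adjusted p = 0.0736). Sod3 stood at 1.86, 1.91 and 2.04 in the control prefrontal cortex and at 2.67, 2.32 and 2.62 in the control hippocampus. Cat stood at -0.96, -1.48 and -1.08 in the cortex and at -0.72, -0.62 and -0.62 in the hippocampus. Neither gene overlapped between the groups, which held for 42.3% of all probes tested, and neither passed the test.

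**Figure D2:**
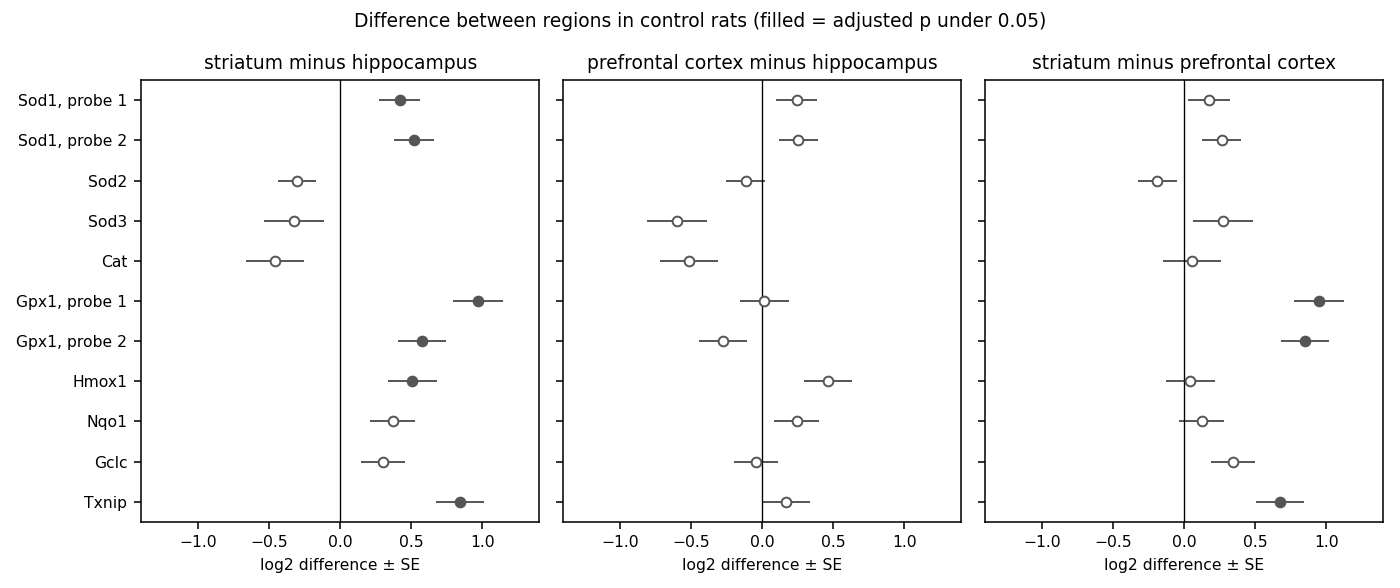
Differences between the regions of control rats for the 11 tested member probes, as log2 difference on the horizontal axis with its standard error; filled points passed at an adjusted p under 0.05. Gpx1 and Txnip passed as higher in the striatum against both other regions, Sod1 and Hmox1 against the hippocampus, and nothing passed between the prefrontal cortex and the hippocampus.

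Markers of other cell types also differed between the regions of control rats. Of 6 oligodendrocyte genes, 5 were higher in the control striatum than in the hippocampus and 6 than in the prefrontal cortex, and their summed level was 377 to 406, 240 to 262 and 126 to 157 in the 3 regions. None of the oligodendrocyte sums overlapped. The summed level of 5 endothelial genes was 16.4 to 17.2 in the control striatum, 10.5 to 11.4 in the hippocampus and 13.8 to 14.5 in the prefrontal cortex. The part of these cell types in the regional differences of Gpx1, Txnip, Sod1 and Hmox1 was not tested. No slide held control arrays of both the striatum and the hippocampus. On slides 5 and 6, which held a striatum and a prefrontal cortex array each, the difference was 1.24 and 0.75 for Gpx1 probe 1, 1.03 and 0.55 for probe 2 and 0.67 and 0.33 for Txnip.

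Goto-Kakizaki rats were compared with controls to see which transcripts differ in a type 2 diabetic brain. In the prefrontal cortex 2 of 11 member probes passed, both higher in Goto-Kakizaki rats, where 8.8% of all probes passed in either direction and 4.26% were higher. They were Sod2, the mitochondrial dismutase, and probe 2 of Gpx1. In the hippocampus (5.11% of all probes) and the striatum (13.8%) no member probe passed in limma, and 2 in each had an unadjusted p under 0.05. The median difference of the member probes in hippocampus, prefrontal cortex and striatum was 0.26, 0.16 and 0.09, against -0.04, 0.01 and 0.02 for all probes.

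Sod2 stood at 0.53, 0.62 and 0.86 in the Goto-Kakizaki prefrontal cortex and at 0.26, 0.08 and 0.15 in that of controls. The lowest Goto-Kakizaki pool was above the highest control pool, with a difference of 0.51 ± 0.14 (SE, n = 3 pools each, 1.42-fold, adjusted p = 0.0214). Groups were apart in this way, in either direction, for 26.9% of all probes tested. In the other regions the difference was 0.19 (hippocampus, adjusted p = 0.597) and 0.17 (striatum, adjusted p = 0.454), and the groups overlapped. In streptozotocin-treated rats Sod2 stood at 0.54, 0.35 and 0.65 in the prefrontal cortex, above all 3 control pools, but did not pass (0.35 ± 0.14, adjusted p = 0.187). That comparison could be made within slides, since slides 5, 6 and 7 each held 1 array of either group, and gave 0.27, 0.51 and 0.28. The call in Goto-Kakizaki rats was lost without Goto-Kakizaki pool 3 (0.41, adjusted p = 0.128) and without control pool 2 (0.47, adjusted p = 0.0923) or pool 3 (0.50, adjusted p = 0.0701). It was also lost with normexp background correction (0.46, adjusted p = 0.0850), with the spread taken from the region alone and by the methods' t-test (adjusted p = 0.256).

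Gpx1 probe 2 stood at 3.78, 4.09 and 4.17 in the Goto-Kakizaki prefrontal cortex and at 3.37, 3.40 and 3.43 in controls. The groups did not overlap, and the difference was 0.61 ± 0.17 (1.53-fold, adjusted p = 0.0275). Probe 1 stood at 3.64, 4.26 and 4.11 against 3.70, 3.71 and 3.69. By that probe the lowest Goto-Kakizaki pool was below all control pools and the difference of 0.30 ± 0.18 did not pass (adjusted p = 0.344). The call by probe 2 was kept without Goto-Kakizaki pool 1 and lost without any of the other 5 pools: without Goto-Kakizaki pool 2 (0.58, adjusted p = 0.0917) or pool 3 (0.53, adjusted p = 0.129), and without control pool 1 (0.60, adjusted p = 0.0720), pool 2 (0.61, adjusted p = 0.0806) or pool 3 (0.63, adjusted p = 0.0699). It was lost under the same settings as that of Sod2, with an adjusted p of 0.303 by the methods' t-test.

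Over the 27 arrays both Gpx1 probes moved together (Pearson r = 0.921, a description, since arrays of a slide and a region share much). Their gap was not the same in all groups. Probe 1 minus probe 2 averaged -0.01 in the Goto-Kakizaki prefrontal cortex and 0.41 in that of streptozotocin-treated rats. The gap went with the slide: it was wider on every array of slides 5, 6 and 7 than on any array of slides 1 to 4. Within the control striatum probes 1 and 2 gave 4.57 and 4.35 on slide 4. They gave 4.95 and 4.43 on slide 5 and 4.44 and 3.98 on slide 6. In the model comparisons that probe 2 passed, Goto-Kakizaki arrays lay on slides 1 to 3 and the others on slides 5 to 7. There, slide and group cannot be told apart. In the control striatum against the control hippocampus, the hippocampus arrays lay on slides 1 and 2 and the striatum arrays on slides 4, 5 and 6. The part of the slide in the unlike differences of the probes in that comparison was not tested. For the Sod1 pair, with r = 0.914 over 26 arrays, the gap stayed between 0.81 and 0.94 in all groups.

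**Figure D3:**
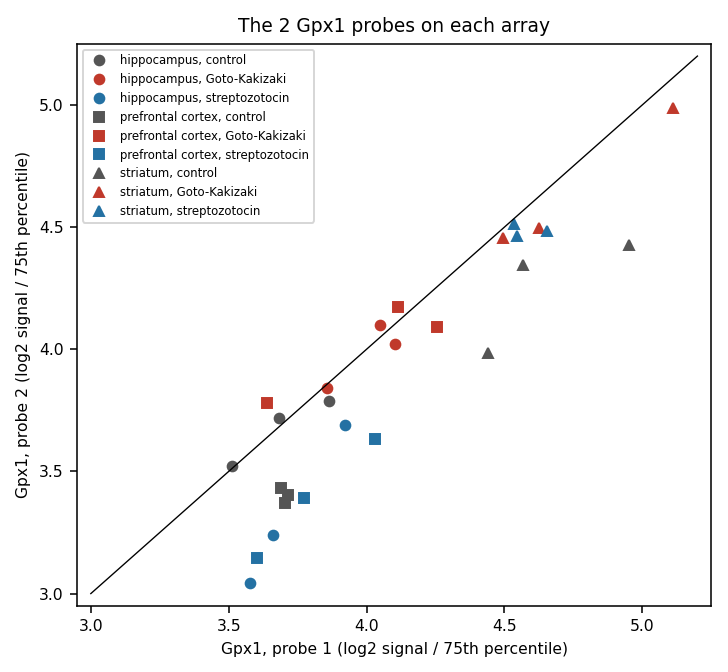
Level of Gpx1 by probe 1 (horizontal axis) and probe 2 (vertical axis) on each of the 27 arrays, in log2 units over the array's 75th percentile, with the line of equal levels. The striatum arrays lie at the upper right with probe 1 at 4.44 or more. The arrays of the Goto-Kakizaki prefrontal cortex lie near the line while those of the streptozotocin prefrontal cortex lie below it. Arrays of slides 5, 6 and 7 lie farther below the line than all others.

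Other transcripts differed beside Sod2 and Gpx1 in the Goto-Kakizaki prefrontal cortex. Among 4 blood cell genes, 1 passed as higher (Alas2, an enzyme of haem synthesis in red cell precursors), and their summed level was 2.63 to 5.04 against 1.86 to 3.15 in controls. The endothelial sum was 16.7 to 18.1 against 13.8 to 14.5 with none of 5 genes called and 1 at an unadjusted p under 0.05. Of 6 oligodendrocyte genes 2 were lower, with sums of 93.5 to 114 against 126 to 157, and of 6 striatal neuron genes 3 were lower, with 6.85 to 9.11 against 5.08 to 18.3. Of 7 genes of meninges and smooth muscle 1 was lower and 5 had an unadjusted p under 0.05, with sums of 6.24 to 14.6 against 11.9 to 25.0. The part of these cells in the differences of Sod2 and Gpx1 was not tested. The Goto-Kakizaki arrays of this region lay on slides 1 and 3 and the control arrays on slides 5, 6 and 7, so that no slide held both. With the slide as a random block the differences were 0.51 (adjusted p = 0.0226) and 0.62 (adjusted p = 0.0284). That block used a single correlation of 0.015 for all slides, so it nearly repeats the fit without it. It cannot separate slide from group here. With slide 6 left out the differences were 0.50 (adjusted p = 0.0741) and 0.63 (adjusted p = 0.0661).

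In the Goto-Kakizaki striatum Hmox1 stood at -0.61, -0.27 and -1.06 and in the control striatum at -1.03, -1.37 and -0.97. The lowest Goto-Kakizaki pool lay within the control range, and the difference of 0.48 ± 0.17 did not pass (adjusted p = 0.0681). It passed without Goto-Kakizaki pool 3 (0.68, adjusted p = 0.0108). On slide 4, which held all 3 Goto-Kakizaki arrays and 1 control array, the difference was 0.38. Gpx1 probe 2 differed by 0.39 ± 0.17 in this region (adjusted p = 0.136), with 4.50, 4.99 and 4.45 against 4.35, 4.43 and 3.98 and no overlap. Of all probes tested there, 22.8% did not overlap. Of 4 blood cell genes 2 were higher there (Hbb and Alas2), with summed levels of 3.35 to 6.50 against 1.64 to 2.10, and of 5 endothelial genes 1, with 19.3 to 25.9 against 16.4 to 17.2. Their part in the value of Hmox1 was not tested.

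**Figure D4:**
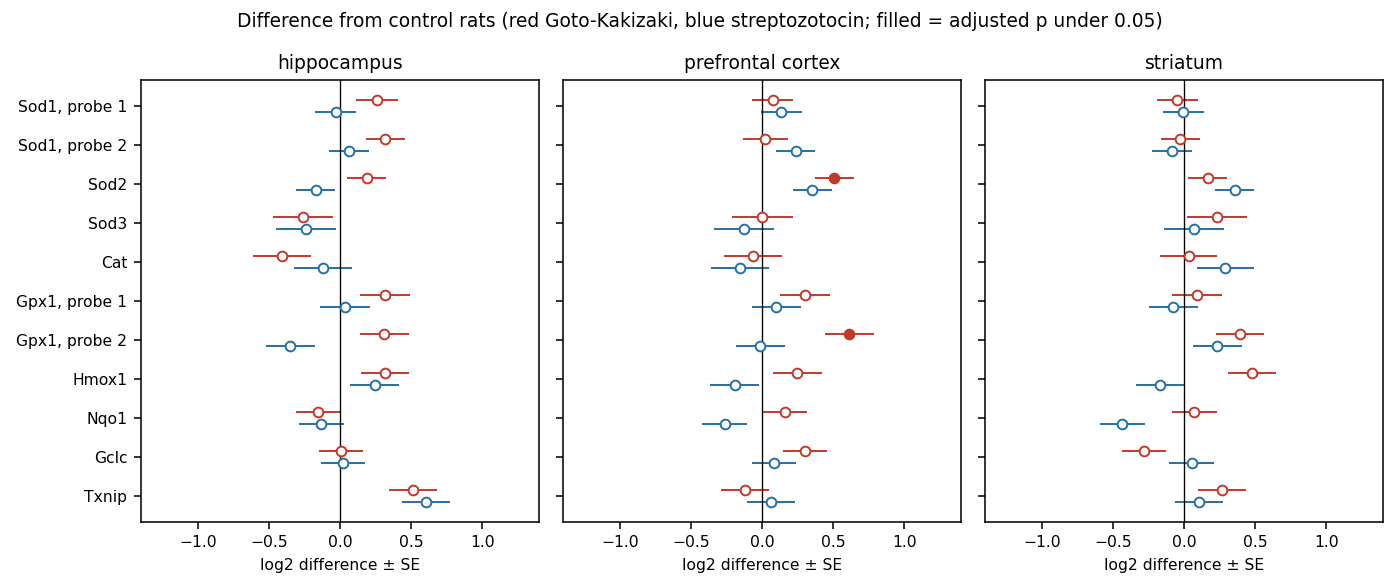
Differences of Goto-Kakizaki (red) and streptozotocin-treated rats (blue) from controls in each region for the 11 tested member probes, as log2 difference with its standard error; filled points passed at an adjusted p under 0.05. Only Sod2 and Gpx1 probe 2 in the Goto-Kakizaki prefrontal cortex passed; both colours share the control arrays.

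Streptozotocin-treated rats had the higher blood sugar of the 2 models. No member probe passed against controls in any region (limma), where 2.2% (hippocampus), 2.67% (prefrontal cortex) and 3.25% (striatum) of all probes passed. At an unadjusted p under 0.05 there were 1, 1 and 2 member probes. The median difference of the members was -0.03, 0.06 and 0.05, against -0.01, 0.01 and -0.03 for all probes.

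Txnip in the hippocampus was the member with the smallest p in this model. It stood at 0.62, 1.03 and 0.56 in streptozotocin-treated rats, at 0.40, 0.81 and 0.72 in Goto-Kakizaki rats and at 0.22, -0.02 and 0.19 in controls. All 6 diabetic pools lay above the 3 control pools. Of all probes tested in the hippocampus, 30.1% did not overlap between streptozotocin-treated and control rats and 44.8% between Goto-Kakizaki and control rats. The difference was 0.60 (95% confidence interval 0.25 to 0.95, 1.52-fold, adjusted p = 0.0639) in streptozotocin-treated rats and 0.51 (0.16 to 0.86, 1.43-fold, adjusted p = 0.0912) in Goto-Kakizaki rats, and neither passed. Both comparisons used the same 3 control arrays. The Goto-Kakizaki difference passed under 2 of 12 other settings: the 50th percentile (0.61, adjusted p = 0.0394) and array weights (0.52, adjusted p = 0.00102). That of streptozotocin-treated rats passed under 2 of 13: quantile normalization (0.61, adjusted p = 0.0444) and array weights (0.53, adjusted p = 0.0266). Under the remaining settings the adjusted p reached 0.376 and 0.333. Slide 2 held 1 Goto-Kakizaki and 2 control arrays of the hippocampus, and the difference on that slide was 0.19. Streptozotocin and control arrays of this region shared no slide. In the prefrontal cortex the differences of Txnip were 0.06 (-0.29 to 0.41) and -0.12 (-0.47 to 0.23), and in the striatum 0.11 (-0.25 to 0.46) and 0.27 (-0.08 to 0.62), in streptozotocin-treated and Goto-Kakizaki rats respectively.

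Choroid plexus genes were uneven among the hippocampus pools: the summed level of 6 such genes was 2.58 to 125 in controls, 20.8 to 155 in Goto-Kakizaki rats and 3.18 to 3.52 in streptozotocin-treated rats. The first 2 ranges overlapped, and none of the 6 genes passed against controls in either model (limma), with 2 in Goto-Kakizaki and 1 in streptozotocin-treated rats at an unadjusted p under 0.05. Its part in the Txnip levels was not tested.

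Nqo1, the quinone reductase, had its widest gap to controls in the streptozotocin striatum, with -2.88, -2.61 and -2.80 against -2.29, -2.38 and -2.32. The groups did not overlap, and the difference of -0.44 ± 0.16 did not pass (0.740-fold, adjusted p = 0.141). Sod2 was at 0.27, 0.42 and 0.30 in that striatum against 0.03, 0.15 and -0.26, a difference of 0.36 ± 0.14 without overlap that did not pass either (adjusted p = 0.163). Of all probes tested, 22.7% did not overlap in this comparison.

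The models were also compared with each other. In the hippocampus 1 of 11 member probes passed (8.7% of all probes), 1 passed in the prefrontal cortex (15.8%) and 2 passed in the striatum (16.1%). All were higher in Goto-Kakizaki rats, as were 4.03%, 7.42% and 8.34% of all probes. Gpx1 probe 2 was the hippocampal one (0.66 ± 0.17, 1.58-fold, adjusted p = 0.0173) and the prefrontal one (0.63 ± 0.17, 1.54-fold, adjusted p = 0.0162). In the hippocampus it stood at 4.10, 3.84 and 4.02 in Goto-Kakizaki and 3.04, 3.69 and 3.24 in streptozotocin-treated rats, and in the prefrontal cortex at 3.78, 4.09 and 4.17 against 3.39, 3.15 and 3.63. Neither pair of groups overlapped, which held for 39.9% and 34.4% of all probes tested. Probe 1 differed by 0.28 ± 0.18 and 0.20 ± 0.18 in the same comparisons and did not pass (adjusted p = 0.387 and 0.497).

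The hippocampal call of Gpx1 probe 2 was lost without Goto-Kakizaki pool 1 (0.61, adjusted p = 0.0769) or pool 3 (0.64, adjusted p = 0.0643), and without streptozotocin pool 1 (0.52, adjusted p = 0.112) or pool 3 (0.62, adjusted p = 0.0681). Without streptozotocin pool 2 the count rose to 2, as Sod2 passed (0.50, adjusted p = 0.0311). The prefrontal call was lost without Goto-Kakizaki pool 2 (0.59, adjusted p = 0.0593) or pool 3 (0.55, adjusted p = 0.0806) and without streptozotocin pool 2 (0.50, adjusted p = 0.0815). Without Goto-Kakizaki pool 1 Nqo1 passed as well (0.54, adjusted p = 0.0331). Without Goto-Kakizaki pool 2 Hmox1 passed in place of Gpx1 (0.58, adjusted p = 0.0492). Neither call of Gpx1 probe 2 held with normexp background correction (adjusted p = 0.144 for the hippocampus and 0.0531 for the cortex) or by the methods' t-test. In the hippocampus 5 of 6 choroid plexus genes were higher in Goto-Kakizaki than in streptozotocin-treated rats, with sums of 20.8 to 155 against 3.18 to 3.52. In the prefrontal cortex 2 of 4 blood cell genes were higher, with 2.63 to 5.04 against 1.33 to 1.45, and 2 of 5 endothelial genes, with 16.7 to 18.1 against 12.5 to 13.5. Their part in the values of Gpx1 was not tested.

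In the striatum the targets of Nrf2 that passed were Hmox1 and Nqo1. Hmox1 stood at -0.61, -0.27 and -1.06 in Goto-Kakizaki rats and at -1.31, -1.20 and -1.35 in streptozotocin-treated rats, a difference of 0.65 ± 0.17 without overlap (1.56-fold, adjusted p = 0.0173). Nqo1 stood at -2.35, -1.88 and -2.54 against -2.88, -2.61 and -2.80, a difference of 0.51 ± 0.16 without overlap (1.42-fold, adjusted p = 0.0359). Non-overlap held for 38.8% of all probes tested. For both genes pool 2 was the highest Goto-Kakizaki pool, and it is the array of lowest weight. Without it neither passed (Hmox1 0.46, adjusted p = 0.117, and Nqo1 0.32, adjusted p = 0.215). Hmox1 was also lost without streptozotocin pool 3 (0.61, adjusted p = 0.0575), and Nqo1 without streptozotocin pool 1 (0.45, adjusted p = 0.0998), pool 2 (0.58, adjusted p = 0.0527) or pool 3 (0.49, adjusted p = 0.0928). Both were lost with the spread of the region alone and by the methods' t-test, and Nqo1 also with normexp background correction (0.46, adjusted p = 0.559), relative to the 50th percentile (0.41, adjusted p = 0.0725) and after quantile normalization (0.44, adjusted p = 0.0545). Gclc, the catalytic ligase subunit, stood at -1.56, -2.25 and -1.53 against -1.66, -1.34 and -1.33, and its difference of -0.34 ± 0.15 did not pass (adjusted p = 0.126). In this comparison 2 of 4 blood cell genes were higher in Goto-Kakizaki rats, with sums of 3.35 to 6.50 against 1.43 to 1.94, and 2 of 5 endothelial genes, with 19.3 to 25.9 against 14.2 to 18.5, and their part in the values of Hmox1 and Nqo1 was not tested. In none of these 3 comparisons did a slide hold arrays of both models.

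Whether a model's difference from control changed with the region was tested directly, and no member probe passed in any of the 6 tests (limma). Of all probes, 0.731% passed for the Goto-Kakizaki difference in the striatum against the hippocampus, 0.316% in the prefrontal cortex against the hippocampus and 0.155% in the striatum against the prefrontal cortex. For streptozotocin the shares were 1.67%, 0% and 0%. At an unadjusted p under 0.05 there were 0, 1 and 1 member probes for Goto-Kakizaki rats and 3, 2 and 0 for streptozotocin-treated rats. Txnip was among them: its Goto-Kakizaki difference was smaller in the prefrontal cortex than in the hippocampus by -0.63 (-1.13 to -0.14, adjusted p = 0.295), and its streptozotocin difference by -0.54 (-1.04 to -0.05, adjusted p = 0.673). The Sod2 difference of streptozotocin-treated rats was larger in the striatum than in the hippocampus by 0.53 (0.13 to 0.93, adjusted p = 0.164) and in the prefrontal cortex by 0.53 (0.12 to 0.93, adjusted p = 0.586).

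Sod1, Sod3, Cat and Gclc passed in no comparison of a model with controls at the settings reported. Sod1 probe 2 in the Goto-Kakizaki hippocampus came nearest among them, at 5.49, 5.46 and 5.58 against 5.21, 5.19 and 5.18, a difference of 0.32 (0.03 to 0.61, adjusted p = 0.256) without overlap. Catalase stood at -1.16, -1.08 and -0.96 against -0.72, -0.62 and -0.62 in the same region, also without overlap, and differed by -0.41 ± 0.20 (adjusted p = 0.340). Of all probes tested there, 44.8% did not overlap. Both genes passed there with the spread of the region alone (adjusted p = 0.0476 for Sod1 probe 2 and 0.0279 for Cat) and with array weights (adjusted p = 0.00189 and 0.00422). Sod3 differed by -0.26 to 0.23 over the 6 comparisons with controls. For Gclc the differences ran from -0.28 in the Goto-Kakizaki striatum to 0.30 in the Goto-Kakizaki prefrontal cortex.

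The genes whose pattern over the 27 arrays was most like that of each member were picked by Pearson correlation among 23517 probes, as a description. Gpx1 probe 1 had the highest correlations, with the histone H2A genes Hist1h2an (r = 0.961), hist1h2ail2 (0.960) and H2ac18 (0.959), and after subtraction of the group means the first was still at 0.911. Sod1 was most like Pfdn1, a subunit of the prefoldin chaperone (0.884), Mrpl34 (0.882) and Ndufs6 (0.863), the last a subunit of respiratory complex I. Sod2 was most like Stx12 (0.877), Immt (0.852), which shapes the mitochondrial inner membrane, and Lrrc4 (0.846).
For Txnip the genes were Dynlt1 (0.885), Nrap (0.884) and F12 (0.872), and for Hmox1 Arpc1b (0.899), Cd151 (0.855) and Cfb (0.835). The within-group values of Txnip and Hmox1 were lower, at 0.654 with Dynlt1 and 0.615 with Arpc1b. Cat was most like Slc25a51 (0.855), Sod3 like Dchs1 (0.880), Nqo1 like Gpsm1 (0.881) and Gclc like Maoa (0.813). The arrays share slides, regions and base composition of probes, and nothing is read from these values about control.

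Around the members, 66 other genes of the same pathways were listed in 8 groups, of which 64 had a probe under their name. Against controls, 0 of 61 tested genes passed in the Goto-Kakizaki hippocampus (limma, 5 at an unadjusted p under 0.05), 3 were higher and 2 lower of 60 in the prefrontal cortex, and 4 were higher and 3 lower of 62 in the striatum. Those shares of 0%, 8.33% and 11.3% stand beside 5.11%, 8.8% and 13.8% of all probes. In streptozotocin-treated rats 1 gene was called in each region, of 60, 60 and 62 tested (1.67%, 1.67% and 1.61%, against 2.2%, 2.67% and 3.25% of all probes): Gpx7 in the hippocampus (0.79 ± 0.19, adjusted p = 0.0287), Nos3 in the prefrontal cortex (-0.74 ± 0.16, adjusted p = 0.0143) and Ncf1 in the striatum (0.61 ± 0.13, adjusted p = 0.0115).

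The sources of superoxide and nitric oxide held the most called genes in Goto-Kakizaki rats. Xdh, the xanthine dehydrogenase that yields superoxide in its oxidase form, stood at -0.86, -0.80 and -0.96 in the Goto-Kakizaki prefrontal cortex against -2.01, -1.49 and -2.09 in controls, and at -0.80, -0.34 and -0.68 against -1.73, -1.53 and -2.05 in the striatum. No pool overlapped, and Xdh was higher by 0.99 ± 0.19 (adjusted p = 0.00196) and 1.17 ± 0.19 (adjusted p = 0.000356). Ncf1, a cytosolic subunit of the phagocyte NADPH oxidase, was higher by 0.42 (adjusted p = 0.0467) and 0.48 (adjusted p = 0.0157) in these regions, and Nos3, the endothelial nitric oxide synthase, by 0.55 in the striatum (adjusted p = 0.0246). Of this list 2 of 5 tested genes passed in the prefrontal cortex and 3 of 7 in the striatum, all higher. Of all probes, 8.8% and 13.8% passed there in either direction. For Ncf1 and Nos3 in the striatum, pool 2 was the highest Goto-Kakizaki pool (-1.37 and -0.06) and the lowest control pool (-2.27 and -1.04). Both are arrays of low weight, and no difference without them is given for these genes.

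Among the peroxide-removing enzymes Gpx8, a peroxidase of the endoplasmic reticulum, was lower in the Goto-Kakizaki prefrontal cortex (-0.68 ± 0.15, adjusted p = 0.00651) and striatum (-0.73 ± 0.15, adjusted p = 0.00299). It stood at 0.89, 0.60 and 0.59 against 1.30, 1.43 and 1.38 in the prefrontal cortex, without overlap. In the striatum Gpx8 stood at 1.44, 0.74 and 1.29 against 1.69, 2.14 and 1.81. Gpx3, the plasma glutathione peroxidase, was higher in the striatum (0.97 ± 0.29, adjusted p = 0.0283), with -2.33, -1.15 and -2.07 against -2.72, -3.26 and -2.49. For both genes pool 2 of either group, an array of low weight, lay farthest from the other group. No difference without these arrays is given for Gpx8 or Gpx3. The remaining genes of this list of 12 did not pass in those regions.

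Slc7a11, the cystine carrier that feeds glutathione synthesis, was lower in both regions, by -2.40 ± 0.55 (adjusted p = 0.00750) and -2.07 ± 0.55 (adjusted p = 0.0157). It was well above background on 2 of 3 Goto-Kakizaki arrays of the prefrontal cortex and on 1 of 3 of the striatum, so that its Goto-Kakizaki levels there are near the detection limit. In the hippocampus it stood at -4.84, -4.61 and -5.07 in Goto-Kakizaki rats against -2.82, -3.65 and -2.49 in controls, well above background on all 6 arrays and without overlap, and was not called. Glrx2, the mitochondrial glutaredoxin, was lower in the striatum (-0.37, adjusted p = 0.0466). Mlx, the partner of the glucose-sensing factors that act on Txnip, was higher in the Goto-Kakizaki prefrontal cortex, with 1.79, 1.88 and 2.15 against 1.33, 1.09 and 1.25 (0.72 ± 0.13, adjusted p = 0.00124), where Txnip itself differed by -0.12 (adjusted p = 0.760). No gene of the thioredoxin, Nrf2, haem and metal or NADPH lists passed against controls in either model in any region (limma, 0 of 149 gene tests, 13 at an unadjusted p under 0.05).

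The pathway genes were also compared between the regions of control rats. In the striatum against the hippocampus 14 were higher and 5 lower of 62 (30.6%, against 29.9%), and against the prefrontal cortex 10 were higher and 4 lower of 61 (23.0%, against 25.4%). By the up to 3 smallest p in each list, those higher in the striatum than in the hippocampus were the peroxiredoxins Prdx1 (0.88) and Prdx4 (0.64), the peroxidase Gpx8 (0.50), the microsomal glutathione transferase Mgst1 (0.93), the oxidase subunit Cyba (1.06), Nos3 (0.54), the Nrf2 gene Nfe2l2 (0.59), its small Maf partner Maff (0.56) and the ferritin heavy chain Fth1 (0.43). Lower in the striatum by the same choice were the glutaredoxin Glrx (-0.91), Ggt7 (-1.09), the methionine sulphoxide reductase Msra (-1.09) and Mlx (-0.48). Between the prefrontal cortex and the hippocampus 3 were higher and 3 lower of 61 (9.84%, against 16%).

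**Figure D5:**
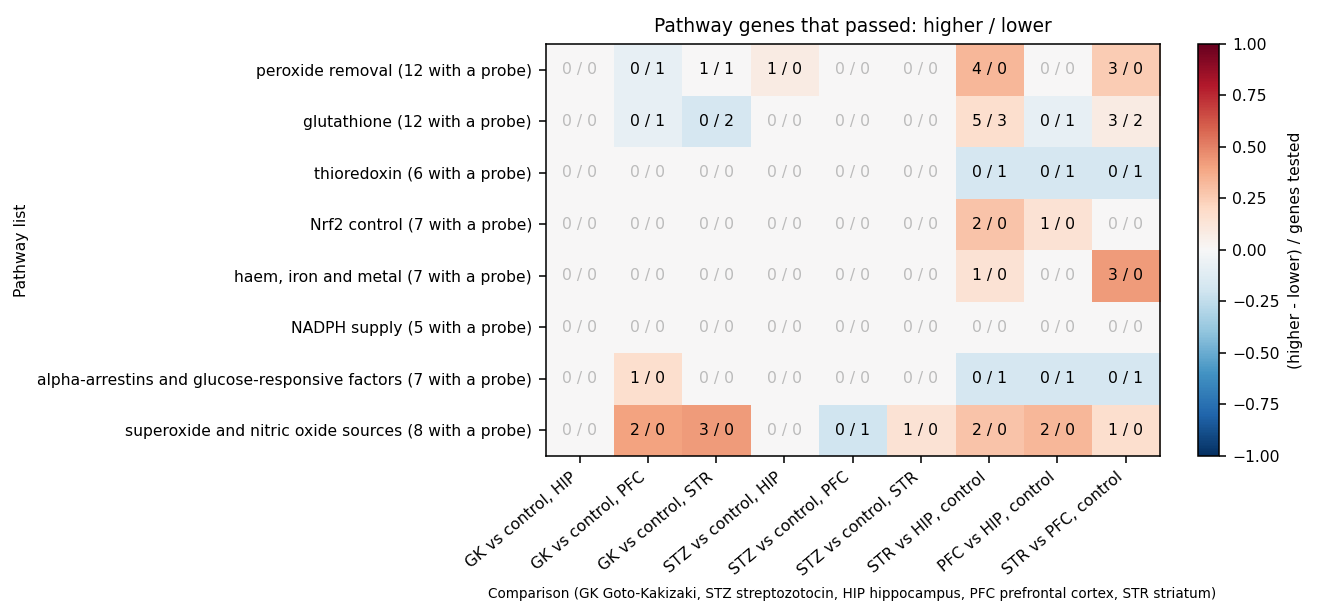
Number of genes called higher / lower in each of the 8 pathway lists (vertical axis) in the 9 comparisons with controls or between control regions (horizontal axis); the colour gives higher minus lower as a share of the genes tested. The comparisons with diabetic rats hold few calls, up to 11.3% of the genes tested in the Goto-Kakizaki striatum, against 13.8% of all probes. The control striatum columns hold the most, with 30.6% against the hippocampus (29.9% of all probes) and 23.0% against the prefrontal cortex (25.4%).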

How the data were processed

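RNA of 27 pools was labelled with a single dye and hybridised to Agilent rat arrays, 1 array per pool. The authors deposited spot intensities from Agilent Feature Extraction 9.1: per the file headers, the processed signal is an intensity after background subtraction and detrending, with no scaling from array to array. The series' value table repeats this intensity. Values used here are log2 of the processed signal minus log2 of the 75th percentile of the 41012 non-control probes of the array, without 2635 outlier values. Testing in a region required a probe to be well above background in at least 2 pools of any of the region's 3 groups, compared or not. Between control regions it required this in either group compared. All probes entered limma 3.58.1 (R 4.3.3, data.table version 1.17.8) with 1 mean for each of the 9 groups, which left 18 residual degrees of freedom, followed by empirical Bayes and Benjamini-Hochberg adjustment over all probes of a comparison. A probe passed at an adjusted p under 0.05, and standard errors use the moderated spread. Each pool holds 3 animals, p-values measure the spread between pools, and whether equal pool numbers in different regions hold the same rats is not given in the sources used here.

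Members were all probes whose annotated gene name is a member, every probe shown. From the other pathway lists the genes named are, per list and comparison with controls and for the control striatum against hippocampus, up to 3 with the smallest p among those that passed, and like-patterned genes are the 3 of highest Pearson correlation. The probe with the highest mean stood for a listed gene. Members, lists and tests were chosen with earlier results of these data known. The alternatives were the 50th percentile, quantile normalization, normexp (offset 50), the series' own values, other filters on dim probes, outlier spots kept, the spread of the region alone, the methods' t-test, array weights, the replicate number or the slide as a block, values within slides, and each pool left out. Chosen after seeing the data were slide 6 left out and both striatum arrays of low weight left out. Replicate numbers paired all arrays in a single comparison, prefrontal cortex of streptozotocin-treated and control rats, whose equal numbers share slides (deviations correlated at 0.494, 0.475 and 0.717). In the control striatum and prefrontal cortex numbers 2 and 3 shared slides (0.551 and 0.600) and number 1 did not (-0.188). Number 1 of Goto-Kakizaki and control rats shared a slide in the hippocampus (0.061) and striatum (0.036). Promoters and current gene names came from RefSeq. Python 3.11.15, numpy 2.4.6, pandas 2.3.3 and matplotlib 3.10.9 served for reading and figures. From the striatal marker list 1 further gene, and from the member probes 1 sequence, are not reported here.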

Additional observations from a re-analysis of the deposited data

How the results depend on the processing

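The counts below are member probes that passed, of 11 tested, and the cause of each change was not tested. The share of all probes that passed under each setting is not set beside them. The counts therefore show how the calls depend on the setting and are not results about the members. Relative to the 50th percentile 1 passed for Goto-Kakizaki against control in the hippocampus, 1 for Goto-Kakizaki against streptozotocin in the striatum and 1 for prefrontal cortex against hippocampus. After quantile normalization 1 each passed for Goto-Kakizaki against control and against streptozotocin in the striatum, streptozotocin against control in the hippocampus, prefrontal cortex against hippocampus, and the streptozotocin effect between striatum and hippocampus. With normexp 0 passed for Goto-Kakizaki against control in the prefrontal cortex and against streptozotocin in the hippocampus and prefrontal cortex, 1 against streptozotocin in the striatum, 3 for striatum against hippocampus and 1 for prefrontal cortex against hippocampus. With the spread of the region alone 2 passed for Goto-Kakizaki in the hippocampus, 0 for Goto-Kakizaki in the prefrontal cortex, 0 between the models in the striatum and 3 for prefrontal cortex against hippocampus. By the methods' t-test 0 passed for Goto-Kakizaki in the prefrontal cortex, between the models in all 3 regions and for striatum against prefrontal cortex, and 1 for striatum against hippocampus. With array weights 7, 2 and 4 passed in the hippocampus (Goto-Kakizaki, streptozotocin and the models against each other), 5, 2 and 4 in the prefrontal cortex, 2 for streptozotocin in the striatum, 3 for prefrontal cortex against hippocampus, 1 for the Goto-Kakizaki effect between prefrontal cortex and hippocampus and 2 for the streptozotocin effect between striatum and hippocampus.

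With the replicate block 1 passed for Goto-Kakizaki in the hippocampus (Cat, adjusted p = 0.0351), 0 for Goto-Kakizaki in the prefrontal cortex, 0 between the models in each region and 1 for striatum against hippocampus, and it changed no other count by over 1.5 times, although Txnip no longer passed for striatum against prefrontal cortex (adjusted p = 0.0981). Of the settings chosen after seeing the data, slide 6 left out gave 0 for Goto-Kakizaki in the prefrontal cortex and between the models in the hippocampus, and both striatum arrays of low weight left out gave 0 between the models in the striatum. Leaving out 1 pool at a time gave 0 to 2 for Goto-Kakizaki in the prefrontal cortex, 0 to 1 for it in the striatum, 0 to 2 between the models in each region, 3 to 6 for striatum against hippocampus, 3 to 4 for striatum against prefrontal cortex, and 0 in the other 11 comparisons. In all, 197 of 240 counts under alternatives and 125 of 144 with a pool left out lay within 1.5 times. Of 204 values of called differences under alternatives, 154 still passed, 50 did not and 0 reversed, and of 90 with a pool left out 58 passed, 32 did not and 0 reversed. The deposited value table, both other filters on dim probes and outlier spots kept changed no count by over 1.5 times. The 3 pools per group limit what can be detected.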
